A study of Mus musculus with 24 samples.

Results

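The genes described here are 10 members of MHC class II antigen presentation, the machinery that displays peptides to CD4 T cells: H2-Aa, H2-Ab1, H2-Ea, H2-Eb1, Cd74, H2-DMa, H2-DMb1, H2-Oa, H2-Ob and Ciita. They were chosen by gene name, and every array probe that carried 1 of these names was kept as a row of its own, because the strains differ in sequence at several of the genes. They are 10 of the 22066 gene symbols on the array, measured by 13 of its 55681 gene probes, 12 of them under the current symbol and 1, for H2-Ea, under its older symbol H2-Ea-ps. Testing was limited to probes that some group detected on all of its 4 arrays, where detected means flagged as well above background. Of the 13 member probes 11 met this, and 28157 of all probes did. The 2 probes left out both belong to H2-Ob, so each of the 10 genes kept at least 1 tested probe.

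RNA from the whole liver of male mice, of the inbred A/J, C3H/HeJ or WSB/EiJ strain, was hybridised to 24 single-colour expression arrays. The 3 strains and 2 diets make 6 groups with 4 arrays each. Mice entered the study at 8 weeks of age and were 20 weeks old after 12 weeks of feeding. The deficient diet held no added choline or folic acid and 0.17% methionine, while in the control diet methionine was at 0.4%, folic acid at 2 mg/kg and choline bitartrate at 0.3%, and both were purified amino acid diets supplemented with iron. The study asked how the strains differ in their response to such a diet, which is known to cause fatty liver and liver injury. Nothing in the labels ties an array to an animal of its own, so the p-values here measure only the spread between these samples, which may be technical. Levels below are log2 of the processed signal minus the 75th percentile of the same array, so that a level of 0 equals that percentile, and they are compared between groups of 1 probe, never between probes. A change is called when limma's adjusted p, by the method of Benjamini and Hochberg over all 28157 probes, is under 0.05.

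MHC class II molecules are pairs of an alpha and a beta chain that bind peptides in the endosomes of dendritic cells, macrophages and B cells and carry them to the cell surface. In the mouse the I-A molecule is made of H2-Aa and H2-Ab1 and the I-E molecule of H2-Ea and H2-Eb1. The invariant chain Cd74 escorts new molecules and blocks their groove, H2-M (H2-DMa with H2-DMb1) removes its last fragment and loads peptide, and H2-O (H2-Oa with H2-Ob) restrains H2-M. The coactivator Ciita switches the whole group on by joining factors that sit on a shared promoter module of X and Y boxes. A/J and C3H/HeJ carry the same class II alleles of the k haplotype, and the reference strain C57BL/6J carries another haplotype, in which the I-E alpha gene is not transcribed, and RefSeq lists it as a transcribed pseudogene.

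Because the strains carry different class II alleles, the probes behind the largest strain differences are given first, with the position the array files state in build NCBI37 (mm9). The H2-Aa probe (chromosome 17, 34421285 to 34421344, minus strand) and the H2-Ea probe (chromosome 17, 34481469 to 34481528, minus strand) are shown whole. For H2-Eb1 (chromosome 17, 34453075 to 34453134, plus strand) the first 30 bases are shown. H2-Ab1 had 2 probes (from 34406296 and from 34406305, plus strand) that overlap over 51 bases and differ there by 1 substitution, T51C, counted from the 5′ end of the first probe and written in capitals in 30 bases of each.
H2-Aa probe: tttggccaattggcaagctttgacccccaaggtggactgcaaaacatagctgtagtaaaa
H2-Ea probe: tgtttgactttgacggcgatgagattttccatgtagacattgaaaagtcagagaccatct
H2-Eb1 probe: ggcacttctgagccagtctgctgtcatatg
H2-Ab1 first probe: agattacaaataaacgagacTcagactctg
H2-Ab1 second probe: agattacaaataaacgagacCcagactctg
The array files give no exon or UTR for a position, and whether a strain's own sequence differs from a probe was not tested. Of the other members, H2-DMa, H2-DMb1, H2-Oa and H2-Ob also lie on chromosome 17, and Ciita and Cd74 lie on other chromosomes. The H2-DMa coordinates span 564 bases for a probe of 60 bases, so that the probe is not 1 unbroken stretch of the genome.

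The shared promoter module can be seen in the RefSeq promoters (build GRCm38.p6, 250 bases before to 50 bases after a gene's start), which held 7 entries for 6 of the 10 members. The X box was searched as GNAAC and the Y box as GATTGG, which contains the reverse complement of CCAAT, on both strands, and the pair as GNAAC followed by GATTGG with 15 to 40 bases between them. These letters and this spacing were chosen after the promoters had been read, so the counts that follow describe the promoters and are not a test. The pair was in 5 of the 7 entries, those of H2-Aa, H2-DMb1, H2-Eb1, H2-Oa and H2-Ob, and in 1.45% of all 32851 promoters. It was in neither entry of H2-DMa. GATTGG alone was in 6 of the 7 entries and in 16.1% of all promoters, and GNAAC alone in all 7 entries and in 84.8% of promoters. The 5 stretches are shown with both motifs in capitals. Members without the pair or without an entry also rose below, and a link of the pair to the diet was not tested.
H2-Aa: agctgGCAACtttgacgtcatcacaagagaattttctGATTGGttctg
H2-DMb1: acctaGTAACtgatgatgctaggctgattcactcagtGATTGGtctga
H2-Eb1: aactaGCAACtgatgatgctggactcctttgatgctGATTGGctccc
H2-Oa: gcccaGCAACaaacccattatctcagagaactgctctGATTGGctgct
H2-Ob: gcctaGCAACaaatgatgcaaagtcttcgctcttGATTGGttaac
In these 5 promoters between 24 and 27 bases separate the motifs, and GATTGG ends between 38 and 56 bases before the start. A match of letters is not a measured site, and binding was not measured here.

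On each array 44.4% to 56.0% of the gene spots had a signal flagged as well above background, and 0 were saturated. Every group had arrays on each of the 3 slides. The 12 hepatocyte markers were above background on all 24 arrays, and 12 of 12 fell on the deficient diet in WSB/EiJ, 11 of 12 in C3H/HeJ and 2 of 12 in A/J, against 2 of 12 in each strain with spike-in scaling. Without spike-in scaling, 69.3% of all probes were called in either direction in WSB/EiJ, 39.7% in C3H/HeJ and 7.31% in A/J. Over all probes tested, the median diet effect was -0.06 in A/J, -0.15 in C3H/HeJ and -0.35 in WSB/EiJ on the log2 scale, and with scaling on the E1A spike-in probes 0.28, 0.29 and 0.62. That scaling turned the share of rises among called probes from 54.5% to 94.1% in A/J, from 35.8% to 88.3% in C3H/HeJ and from 29.2% to 89.9% in WSB/EiJ. The share was 72.1% in A/J with median centring, and 46.7% in C3H/HeJ and 43.2% in WSB/EiJ with quantile normalization. The member calls named below as rises in C3H/HeJ and WSB/EiJ kept their direction under it.

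The deficient diet was followed by large rises of class II genes in C3H/HeJ and WSB/EiJ livers, in WSB/EiJ of all tested probes but that of H2-Aa, and by smaller, overlapping differences in A/J. In C3H/HeJ 11 of 11 tested member probes rose, where 14.2% of all probes rose and 39.7% were called in either direction. In WSB/EiJ 10 of 11 rose, where 20.2% of all probes rose and 69.3% were called in either direction. In A/J 0 of 11 passed limma's test, at adjusted p from 0.245 to 0.599, where 7.31% of all probes did, and 0 passed at an unadjusted p under 0.05. For the 6 probes of 5 genes that were above background on at least 3 arrays of every group (Cd74, both probes of H2-Ab1, H2-Eb1, H2-DMa and H2-DMb1), the median diet effect was 4.27 in C3H/HeJ and 3.76 in WSB/EiJ. It was 0.86 in A/J, where single values ran from 0.75 to 1.01. All deficient arrays were above all control arrays for 10 of 11 probes in C3H/HeJ (11.8% of all probes), for 10 of 11 in WSB/EiJ (19% of all probes) and for 0 of 11 in A/J (6.57% of all probes). In whole-liver RNA more cells of a type and more RNA per cell cannot be told apart.

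**Figure D1:**
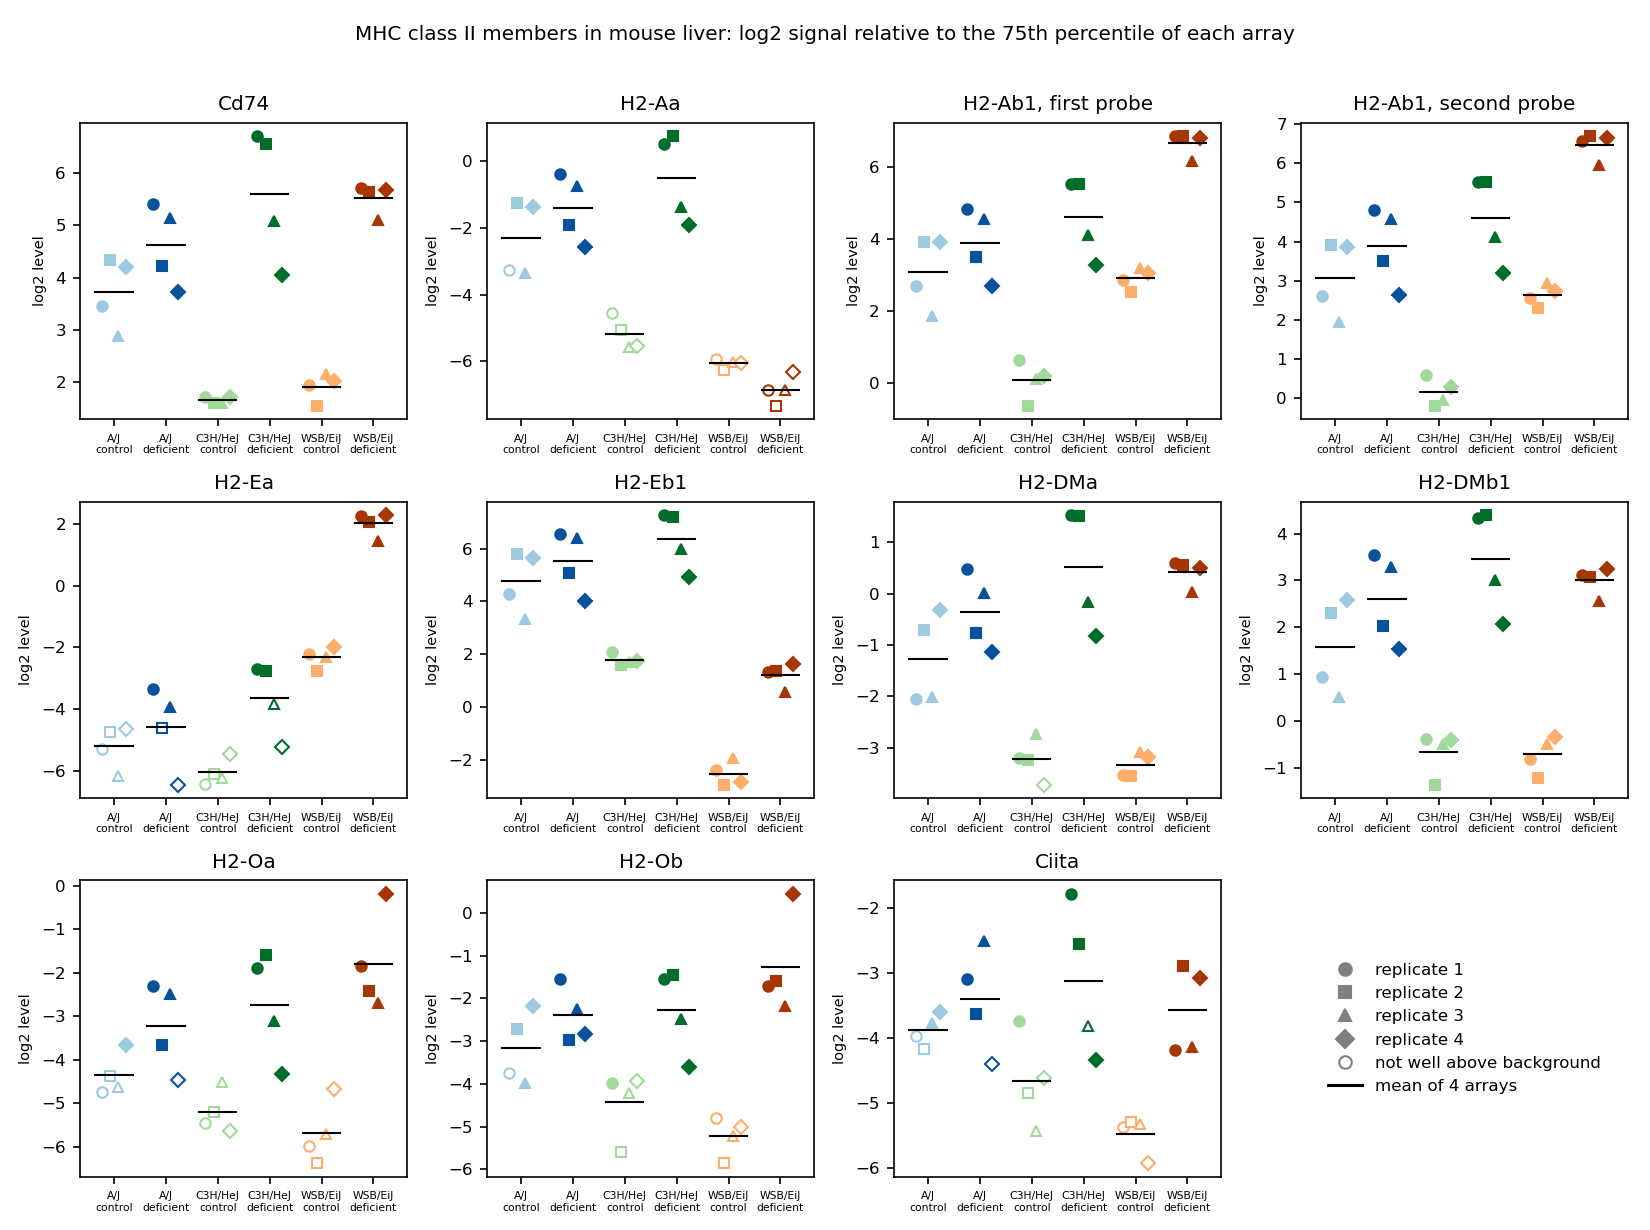
Levels of the 11 tested member probes on each of the 24 arrays, as log2 signal relative to the 75th percentile of the array, by strain and diet (symbols are replicates 1 to 4, open where not well above background, bars are means of 4 arrays). The deficient C3H/HeJ and WSB/EiJ arrays lie above their controls in most panels, the A/J arrays of the diets overlap, and H2-Aa is open on all WSB/EiJ arrays.

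The invariant chain Cd74 shows the pattern with a probe above background on all 24 arrays. On the control diet its level was 3.46, 4.33, 2.88 and 4.20 on A/J replicates 1 to 4, 1.71, 1.61, 1.60 and 1.72 in C3H/HeJ, and 1.95, 1.55, 2.15 and 2.02 in WSB/EiJ. On the deficient diet it was 5.40, 4.23, 5.14 and 3.72 in A/J, 6.70, 6.56, 5.08 and 4.05 in C3H/HeJ, and 5.71, 5.64, 5.09 and 5.67 in WSB/EiJ. All A/J controls were thus above all other controls, and the A/J arrays of the diets overlapped while those of the other strains did not. Cd74 rose by 3.94 ± 0.46 (SE; 15.3-fold) in C3H/HeJ (limma, adjusted p = 3.12e-06) and by 3.61 ± 0.46 (12.2-fold) in WSB/EiJ (adjusted p = 9.99e-07). In A/J the difference was 0.91 ± 0.46, with the deficient array higher in 13 of 16 pairs, and did not pass (adjusted p = 0.245). In order, the group means were 1.66 ± 0.06 (SD, n = 4) for C3H/HeJ controls, 1.92 ± 0.26 for WSB/EiJ controls, 3.72 ± 0.68 for A/J controls, 4.62 ± 0.79 for A/J deficient, 5.53 ± 0.29 for WSB/EiJ deficient and 5.60 ± 1.27 for C3H/HeJ deficient. The difference between the C3H/HeJ and WSB/EiJ controls did not pass (0.26 ± 0.46, SE, limma's adjusted p = 0.698). That SE rests on a spread shared by all 6 groups, which is wider than that of these controls.

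Among the chains that form the I-A molecule, H2-Ab1 rose in the same strains. Its first probe read 0.62, -0.64, 0.10 and 0.19 on the C3H/HeJ controls and 5.52, 5.51, 4.11 and 3.27 on the deficient arrays. In WSB/EiJ it read 2.86, 2.51, 3.18 and 3.03 on the controls and 6.84, 6.84, 6.16 and 6.80 on the deficient arrays. In A/J it read 2.68, 3.91, 1.84 and 3.92 on the controls and 4.84, 3.50, 4.56 and 2.68 on the deficient arrays, which lay within much the same range. The rise was 4.54 ± 0.52 (SE; 23.2-fold) in C3H/HeJ and 3.77 ± 0.52 (13.6-fold) in WSB/EiJ. The second probe, with the base change shown above, gave 4.43 ± 0.51 and 3.83 ± 0.51, and the probes gave 0.81 and 0.80 in A/J. Because the probes overlap over 51 bases, these are not independent readings of the gene.

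The partner chain H2-Aa had a strain-dependent signal. Its probe was not well above background on any of the 8 WSB/EiJ arrays, on either diet, and no fold is given there. In C3H/HeJ it was not above background on the controls (-4.54, -5.06, -5.56 and -5.55) and was above it on all deficient arrays (0.51, 0.74, -1.37 and -1.93). This was a rise of at least 11.2-fold, from a measured mean of -5.18 ± 0.48 (SD, n = 4) to -0.51 ± 1.34 (limma, adjusted p = 6.74e-06). For this bound each array of the dimmer group was set to the lowest signal that counted as well above background on that array, or to the probe's own signal where that was higher, and the group means were then compared. In A/J the controls read -3.26, -1.25, -3.34 and -1.38, with 3 of 4 above background, and the deficient arrays -0.38, -1.91, -0.74 and -2.58, and the groups overlapped. Whether the WSB/EiJ sequence under this probe lowers its signal was not tested.

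The beta chain of I-E, H2-Eb1, rose as H2-Ab1 did, from very different starting signals. Whether strain sequence under the probe changes these signals was not tested. It read 2.08, 1.58, 1.69 and 1.74 on C3H/HeJ controls and 7.27, 7.21, 6.0 and 4.92 on deficient arrays, a rise of 4.58 ± 0.58 (SE; 23.9-fold). On WSB/EiJ arrays it read -2.41, -2.95, -1.96 and -2.85 on the control diet and 1.34, 1.35, 0.56 and 1.63 on the deficient diet, a rise of 3.76 ± 0.58 (13.6-fold). The deficient WSB/EiJ arrays, although raised, were below every A/J array of either diet and every deficient C3H/HeJ array, and they overlapped with the C3H/HeJ controls. A/J controls read 4.29, 5.81, 3.32 and 5.63 and deficient arrays 6.57, 5.08, 6.41 and 4.00, which overlapped.

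The alpha chain of I-E, H2-Ea, showed the opposite order of strains in signal, and the effect of strain sequence under its probe was not tested. Its probe was above background on all 8 WSB/EiJ arrays, where it read -2.23, -2.77, -2.33 and -1.99 on the control diet and 2.27, 2.08, 1.45 and 2.29 on the deficient diet. The rise was 4.35 ± 0.55 (SE; 20.4-fold, limma's adjusted p = 1.02e-06). On A/J and C3H/HeJ arrays it was above background on 2 of 4 deficient arrays in each strain, A/J replicates 1 and 3 and C3H/HeJ replicates 1 and 2, and on 0 of the 4 controls of each. Those 4 arrays are also the deficient arrays with the highest Cd74 in their strains. In C3H/HeJ the rise was at least 1.28-fold, from a measured mean of -6.06 ± 0.42 (SD, n = 4) to -3.64 ± 1.19 (limma, adjusted p = 0.00205).

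Both chains of H2-M, which edits the peptide load, rose with the molecules it serves. H2-DMa read -3.20, -3.25, -2.73 and -3.72 on C3H/HeJ controls (the last not above background) and 1.53, 1.51, -0.16 and -0.83 on deficient arrays. On WSB/EiJ it read -3.52, -3.55, -3.07 and -3.17 on the control diet and 0.59, 0.56, 0.04 and 0.51 on the deficient diet, and no array of one diet reached the other in either strain. H2-DMa rose by 3.74 ± 0.48 (SE; 13.3-fold) and 3.76 ± 0.48 (13.5-fold), and H2-DMb1 by 4.11 ± 0.52 (17.2-fold) and 3.71 ± 0.52 (13.1-fold), in C3H/HeJ and WSB/EiJ. In A/J, H2-DMa read -2.05, -0.70, -2.01 and -0.32 on controls and 0.49, -0.77, 0.01 and -1.14 on deficient arrays. That left differences of 0.92 ± 0.48 for H2-DMa and 1.01 ± 0.52 for H2-DMb1 that did not pass (limma, adjusted p = 0.258 and 0.255).

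The chains of H2-O, the inhibitor of H2-M that is known mainly from B cells, were dim and partly below background. H2-Oa was above background on all deficient and no control arrays of C3H/HeJ and WSB/EiJ. Its rise was at least 2.41-fold in C3H/HeJ (limma, adjusted p = 0.00312) and at least 4.53-fold in WSB/EiJ (adjusted p = 1.03e-05). The tested H2-Ob probe rose by 2.17 ± 0.57 (SE) in C3H/HeJ, where 1 of 4 controls was above background, and by at least 6.55-fold in WSB/EiJ (adjusted p = 0.00518 and 4.31e-06). With normexp background correction and quantile normalization the C3H/HeJ value was 0.65 and did not pass (adjusted p = 0.052). Of the other H2-Ob probes, 1 was not above background on any array, and the other was above it on 11 arrays but on all 4 of no group. For the latter the group mean went from -5.36 to -4.08 in WSB/EiJ and from -4.75 to -3.84 in C3H/HeJ. These differences were smaller than those of the tested probe, with 0 of 4 controls above background in either strain, and they were not tested.

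For both H2-O chains 1 array stood apart. WSB/EiJ deficient replicate 4 read -0.19 for H2-Oa, against -1.85, -2.43 and -2.71 on replicates 1 to 3, and 0.45 for H2-Ob, against -1.72, -1.60 and -2.18. Its Cd74, H2-Ab1 and H2-DMa levels were within the range of the other deficient WSB/EiJ arrays, and it was the highest of them for H2-Eb1 (1.63, the others up to 1.35), H2-DMb1 (3.24, up to 3.12) and H2-Ea (2.29, up to 2.27). Without this array the rises in WSB/EiJ were at least 3.12-fold for H2-Oa and 4.41-fold for H2-Ob, against the 4.53-fold and 6.55-fold bounds with it, and both still passed (limma, adjusted p = 5.93e-05 and 1.85e-05). The same array was also the only one above background for the paralogs H2-DMb2 and H2-Eb2, at -3.92 and -3.51.

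Ciita, the coactivator of the group, was near background on most arrays. It was above background on 1 of 4 C3H/HeJ controls and 3 of 4 deficient arrays, and its levels went from -3.74, -4.85, -5.43 and -4.62 to -1.78, -2.56, -3.81 and -4.34, with overlap. The rise of 1.54 ± 0.48 (SE) in C3H/HeJ passed (limma, adjusted p = 0.0155), and was lost without C3H/HeJ control replicate 3 (adjusted p = 0.0557), deficient replicate 1 (0.0766) or deficient replicate 2 (0.0577), and with only the compared groups fitted (0.0764). In WSB/EiJ Ciita was above background on 0 of 4 controls and 4 of 4 deficient arrays, and the rise was at least 1.32-fold (adjusted p = 0.00153). With normexp background correction and quantile normalization it was 0.20 on the log2 scale and did not pass (adjusted p = 0.109). In A/J its difference was 0.47 ± 0.48 (adjusted p = 0.599).

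**Figure D2:**
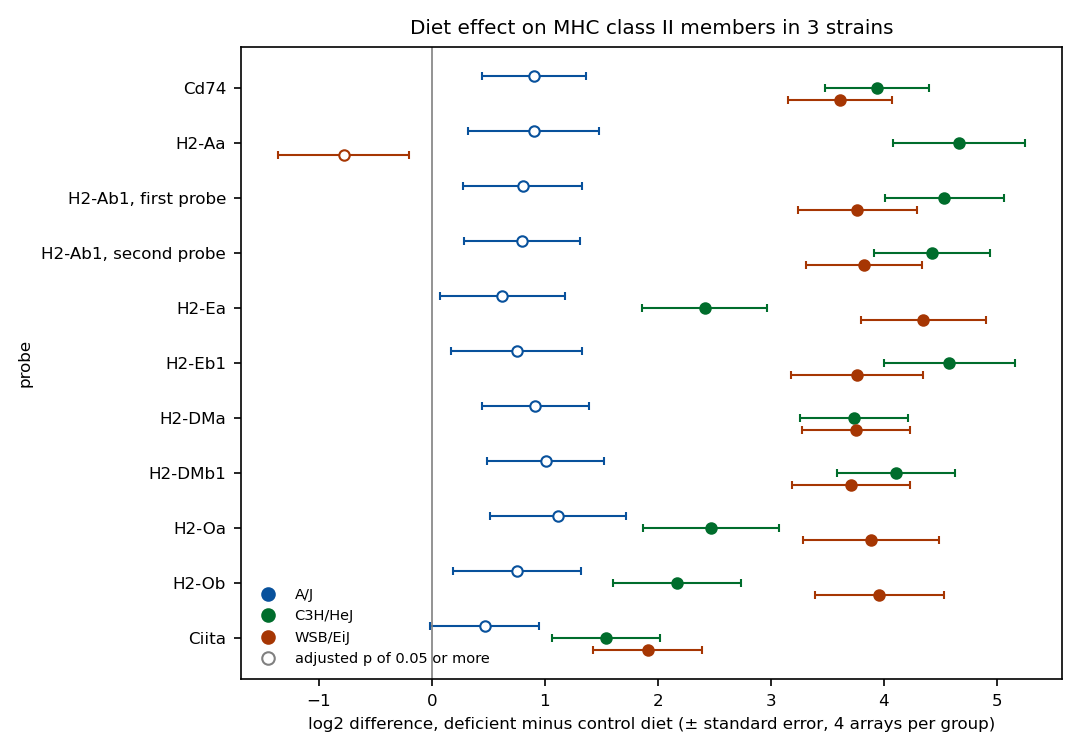
Diet effect of each tested member probe, as the log2 difference of deficient minus control arrays with its standard error (horizontal axis, 4 arrays per group), by probe (vertical axis) and strain (open points did not pass an adjusted p of 0.05). The A/J points lie between 0.47 and 1.12 and are all open, and the C3H/HeJ and WSB/EiJ points of Cd74, H2-Ab1, H2-Eb1, H2-DMa and H2-DMb1 lie between 3.61 and 4.58.

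The next comparison asked whether the diet effect itself differed between strains, and for most members it was larger in C3H/HeJ and WSB/EiJ than in A/J. The diet effect in C3H/HeJ exceeded that in A/J for 7 of 11 probes, where it did for 1.29% of all probes and 2.04% were called in either direction. These were Cd74 (3.03 ± 0.65, SE), H2-Aa (3.76 ± 0.82), both H2-Ab1 probes (3.73 ± 0.74 and 3.63 ± 0.72), H2-Eb1 (3.83 ± 0.82), H2-DMa (2.82 ± 0.67) and H2-DMb1 (3.1 ± 0.73), with limma's adjusted p from 0.011 to 0.0301. The H2-Aa value rests on C3H/HeJ controls below background. Without both A/J arrays numbered 4 the count was 0 of 11, and the 7 differences then lay between 2.24 and 3.06 with adjusted p from 0.0517 to 0.144. With only the compared groups in the fit the count was also 0, at the same sizes, and with spike-in scaling it was 4. The H2-DMa call was lost in 15 and the H2-DMb1 call in 13 of the alternative settings, at adjusted p up to 0.144. Single arrays whose loss ended both calls were A/J control replicates 2 and 4, A/J deficient replicates 2 and 4, C3H/HeJ control replicate 2 and C3H/HeJ deficient replicates 1 and 2, and for H2-DMa also C3H/HeJ control replicate 4 (adjusted p from 0.0539 to 0.0776).

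For WSB/EiJ against A/J 9 of 11 probes passed, where 13.2% of all probes were higher and 43.6% were called in either direction. For the 6 probes above background on at least 3 arrays of every group the differences ran from 2.70 ± 0.73 (SE) for H2-DMb1 to 3.02 ± 0.72 for the second H2-Ab1 probe. H2-Ea, H2-Oa and H2-Ob also passed, with groups partly below background, so that the sizes of their differences are not exact. Over the 9 probes limma's adjusted p ran from 0.000977 to 0.0128. Ciita (1.44 ± 0.68, adjusted p = 0.0899) and H2-Aa (-1.68 ± 0.82, adjusted p = 0.101) were the exceptions, and H2-Aa was below background in WSB/EiJ. Ciita passed without A/J deficient replicate 3 (1.74, adjusted p = 0.0451) and H2-Aa with slide as a block (-2.14, adjusted p = 0.0273). The H2-Oa difference (2.77 ± 0.85) rests on controls below background and did not pass without both A/J arrays numbered 4 (2.13, adjusted p = 0.0684) or with normexp and quantile normalization (0.69, adjusted p = 0.0846), and the H2-Eb1 difference did not pass with the latter either (1.57, adjusted p = 0.164). Between WSB/EiJ and C3H/HeJ the diet effect differed for 1 of 11 probes, H2-Aa (-5.45 ± 0.82, adjusted p = 0.000165), where 14.4% of all probes were lower and 21.4% were called in either direction. For Cd74 the difference between those strains was -0.32 ± 0.65 and for H2-DMa 0.02 ± 0.67 (adjusted p = 0.747 and 0.988), and with standard errors of this size a p above the threshold does not show that the strains responded alike.

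On the control diet the strains already differed, and A/J had the highest levels of most members. In C3H/HeJ 7 of 11 probes were lower than in A/J, where 8.97% of all probes were lower and 20.6% were called in either direction. This comparison shares its control arrays with the diet effects above. Cd74 was lower by a factor of 4.17 (log2 difference -2.06 ± 0.46, SE) and H2-Ab1 by factors of 8.11 and 7.56. As background, these strains share their alleles of the I-A and I-E chains. H2-Aa was higher in A/J by at least 3.23-fold, with 3 of 4 A/J controls above background. With normexp and quantile normalization the H2-Aa and H2-DMa calls were lost (-0.70 and -0.82, limma's adjusted p = 0.13 and 0.0965). For these 7 probes all A/J controls were above all C3H/HeJ controls.

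WSB/EiJ controls differed from A/J controls in both directions. In WSB/EiJ 7 of 11 probes were lower, where 17.5% of all probes were, and 1 was higher, where 25.6% were, so that 43.1% were called in either direction. Of the lower calls those of Ciita and H2-Ob were lost with normexp and quantile normalization (-0.14 and -0.36, limma's adjusted p = 0.318 and 0.294). The H2-Eb1 signal was lower by 7.30 ± 0.58 (SE; limma's adjusted p = 2.7e-09), a 158-fold difference in signal and the largest among the members. The H2-Ea signal was higher by at least 3.26-fold. Whether a strain's own sequence under these probes changes their signal was not tested, so these are not measured differences in RNA level. The H2-Ab1 probes did not separate these strains (-0.19 ± 0.52 and -0.44 ± 0.51, adjusted p = 0.799 and 0.518), the first changing sign without A/J control replicate 2 or 4 (0.08 in both cases). H2-Oa did not pass (-1.33 ± 0.60, adjusted p = 0.0793), but did without WSB/EiJ control replicate 4 (-1.67, adjusted p = 0.0419). Cd74 was lower by 1.80 ± 0.46 and H2-DMa by 2.06 ± 0.48 in WSB/EiJ. Against C3H/HeJ, WSB/EiJ controls had 3 of 11 probes higher (21% of all probes were), namely both H2-Ab1 probes (2.83 ± 0.52 and 2.48 ± 0.51) and H2-Ea (at least 3.18-fold), and 1 lower (17.2% of all probes were), H2-Eb1 (-4.31 ± 0.58), with 38.2% of all probes called in either direction. Between these strains Cd74 differed by 0.26, H2-DMa by -0.11 and H2-DMb1 by -0.05 on the log2 scale, none of which passed (limma, adjusted p = 0.698, 0.884 and 0.95).

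The A/J arrays of each diet differed among themselves in the same way for nearly all members. For every tested probe but that of Ciita, control replicates 2 and 4 were above control replicates 1 and 3, and deficient replicates 1 and 3 were above deficient replicates 2 and 4. Control replicates 2 and 4 and deficient replicate 1 were on slide 3, control replicate 1 and deficient replicate 3 on slide 1, and control replicate 3 and deficient replicates 2 and 4 on slide 2. Within slides, where 1 or 2 arrays of a diet remain, the A/J Cd74 difference was 1.68, 1.09 and 1.14 on slides 1 to 3. With slide as a block it was 1.07 ± 0.43 (SE) and did not pass (limma, adjusted p = 0.121). The C3H/HeJ Cd74 difference was 2.85, 5.05 and 4.95 and the WSB/EiJ one 3.63, 3.55 and 3.71 on the same slides, and with the block they were 3.92 ± 0.43 and 3.47 ± 0.43. Over all 11 probes and slides, 32 of 33 A/J differences, all 33 in C3H/HeJ and 30 of 33 in WSB/EiJ were above 0, the 3 exceptions in WSB/EiJ being H2-Aa.

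Markers of the cells that carry class II molecules moved with the same diet, and so did markers of other liver cells. Of 5 biliary markers 2 rose in C3H/HeJ, 5 in WSB/EiJ and 0 in A/J, and of 6 stellate cell markers 2, 5 and 0. Of 6 sinusoidal endothelial markers 2 rose in C3H/HeJ, 1 in WSB/EiJ and 1 in A/J, and 3 fell in WSB/EiJ. Those falls depend on the scaling: in WSB/EiJ 5 rose and 0 fell with spike-in scaling, and 1 rose and 0 fell with quantile normalization. Of 9 tested dendritic cell markers 7 rose in C3H/HeJ, 8 in WSB/EiJ and 2 in A/J, and 1 fell, Zbtb46 in WSB/EiJ, which read 0.19 with spike-in scaling. Itgax, the integrin CD11c, rose by 5.25 in C3H/HeJ, where 1 of 4 controls was above background, and by 3.65 in A/J on the log2 scale, and by at least 78.8-fold in WSB/EiJ. Of 12 macrophage and monocyte markers 11 rose in C3H/HeJ, 11 in WSB/EiJ and 4 in A/J, with medians of 1.48, 3.20 and 0.67. Among all probes 14.2% rose in C3H/HeJ and 20.2% in WSB/EiJ, and 7.31% were called in either direction in A/J. The summed signal of the dendritic list, in units of each array's 75th percentile, ran from 1.37 to 2.96 in A/J controls and from 2.73 to 7.24 in deficient A/J, from 1.05 to 1.57 and 2.87 to 8.95 in C3H/HeJ, and from 0.94 to 1.36 and 7.91 to 15.6 in WSB/EiJ. On A/J arrays the mean dendritic level was highest on deficient replicates 1 and 3, which also had the highest Cd74. Of 6 Kupffer cell markers 2 rose in C3H/HeJ, 3 in WSB/EiJ and 0 in A/J (limma; 1 at an unadjusted p under 0.05). With spike-in scaling 3, 6 and 2 of them rose, as did 4 dendritic and 7 macrophage markers in A/J, and with quantile normalization 5 Kupffer cell markers rose in WSB/EiJ. The part of these cells in the class II values was not tested.

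The difference of diet effects between C3H/HeJ and A/J was called for few markers. The diet effect in C3H/HeJ exceeded that in A/J for 0 of 9 dendritic markers (limma, adjusted p from 0.0714 to 0.701; 2 at an unadjusted p under 0.05) and for 1 of 12 macrophage markers, Mpeg1 (1.60, adjusted p = 0.00167; 6 at an unadjusted p under 0.05). The median difference was 0.99 and 0.60 in these lists, against 3.36 for the 6 member probes above background on at least 3 arrays of every group. For WSB/EiJ against A/J, the effect on 6 of 9 dendritic and 10 of 12 macrophage markers was larger and that on 1 dendritic marker, Zbtb46, lower. The medians there were 1.91 and 2.46, against 2.90 for the same 6 member probes. Of all probes 13.2% were higher in this comparison and 1.29% in that of C3H/HeJ with A/J. The lists were not tested against each other.

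B cell markers followed another course. Of 10 listed 5 were tested, and Ms4a1, Pax5, Blk, Fcrla and Ebf1 were above background on all 4 arrays of no group. Cd79b rose by at least 6.04-fold in WSB/EiJ (limma's adjusted p = 0.000494) and Cd22 fell by 0.85, which became 0.11 with spike-in scaling, and in A/J and C3H/HeJ 0 of 5 passed (0 at an unadjusted p under 0.05). WSB/EiJ deficient replicate 4, the array with the highest H2-Oa and H2-Ob, had a summed B cell signal of 7.61, against 1.64, 1.92 and 2.05 on replicates 1 to 3, and its mean log2 level of T cell markers was 0.91 against -1.26, -1.24 and -1.61. Its summed T cell signal, 26.9, did not stand apart from 14.9, 16.3 and 26.0, and the WSB/EiJ controls lay between 45.5 and 68.0. Without this array the Cd79b rise in WSB/EiJ was 2.04 ± 0.40 on the log2 scale (SE; limma, adjusted p = 0.00022). That is less than the 6.04-fold bound, which thus rests on this array. Without it 1 B cell marker rose and 2 fell in WSB/EiJ, and 4 rather than 6 of 8 T cell markers rose, with 2 lower in either case. The counts of dendritic, macrophage and Kupffer cell markers and of class II members stood as given. The part of these cells in the H2-O values was not tested.

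**Figure D3:**
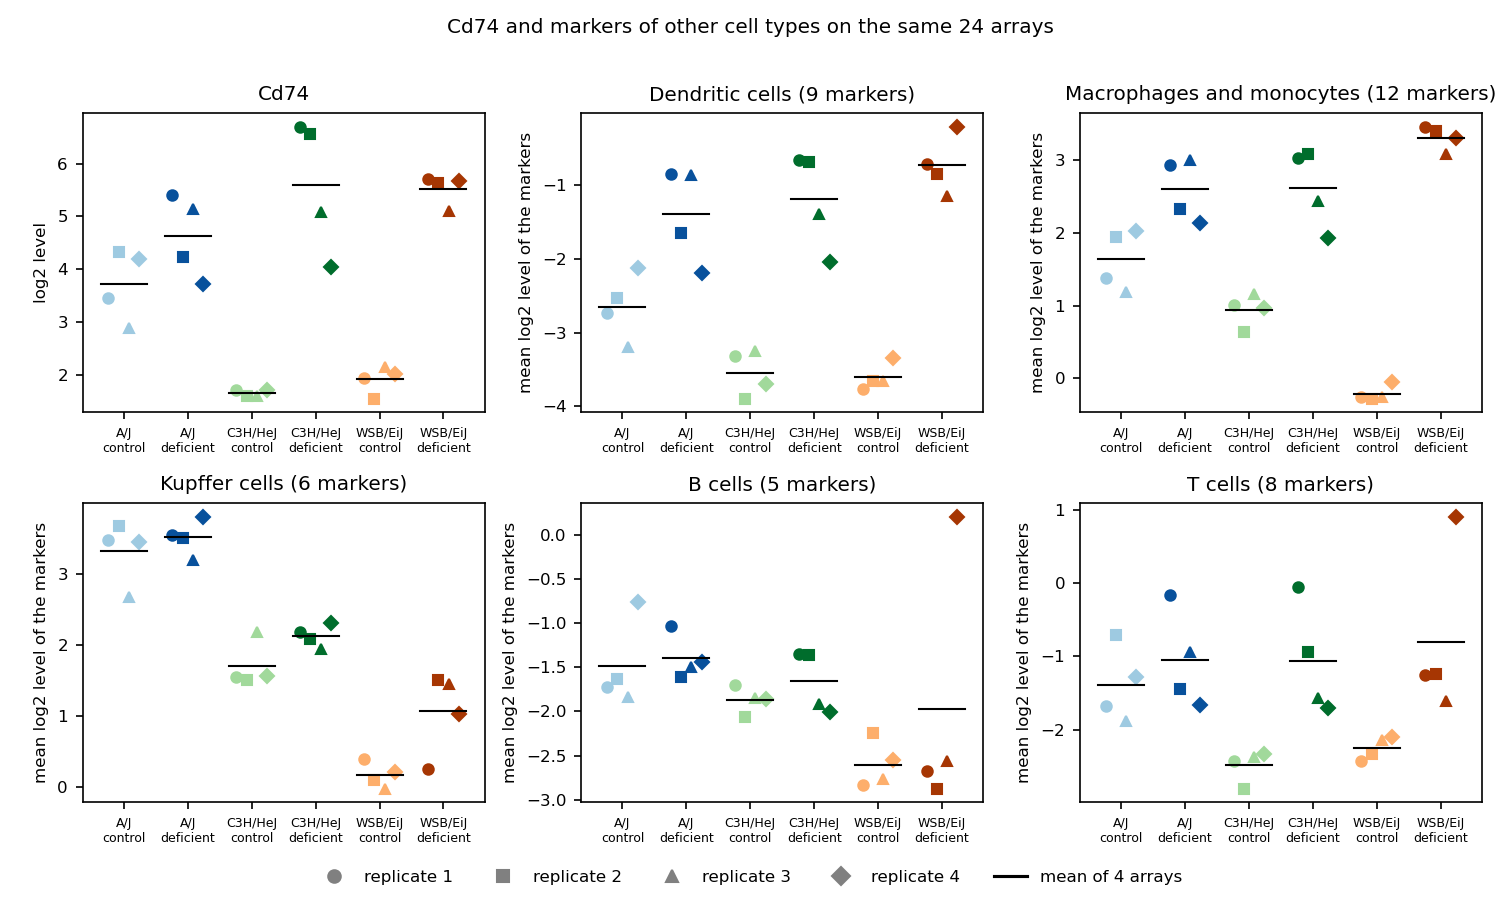
Level of Cd74 and mean log2 level of the tested markers of 5 cell types on each of the 24 arrays, relative to the 75th percentile of the array, by strain and diet (symbols are replicates 1 to 4, bars are means of 4 arrays). WSB/EiJ deficient replicate 4 stands apart at 0.21 for B cells and 0.91 for T cells but lies among its group for Cd74.

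Of 32 other genes of the pathway 28 were tested, and 11 rose in C3H/HeJ, 13 in WSB/EiJ and 5 in A/J, while 7 fell in WSB/EiJ (Rfxap, Nfyb, Nfyc, Ctsh, Sppl2a, March8 and Mif), all of which were above 0 with spike-in scaling. In either direction 11 of 28 were called in C3H/HeJ, 20 in WSB/EiJ and 5 in A/J, against 39.7%, 69.3% and 7.31% of all probes. Of all probes 14.2% rose in C3H/HeJ and 20.2% in WSB/EiJ. With spike-in scaling 16 pathway genes rose in C3H/HeJ, 25 in WSB/EiJ and 13 in A/J. With quantile normalization 15, 18 and 8 rose and 1 fell in WSB/EiJ, so these counts depend on the scaling. Among the proteases that cut the invariant chain and antigens, Ctss, the cathepsin S of antigen-presenting cells, rose by 2.38 in C3H/HeJ and 4.50 in WSB/EiJ and was 0.97 in A/J (limma, adjusted p = 0.0797). Ifi30, the lysosomal thiol reductase, rose by 1.75 and 3.56 and was 0.53 in A/J (adjusted p = 0.177). Lgmn, the asparagine endopeptidase, rose in all 3 strains, by 0.64 in A/J, 0.88 in C3H/HeJ and 1.32 in WSB/EiJ, and Ctsd by 0.39, 0.43 and 0.94, the A/J calls of both being lost with only the compared groups fitted (adjusted p = 0.0697 and 0.0671). The cathepsins Ctsl and Ctsb, also in this list of 8, passed in no strain, but both rose in all 3 strains with spike-in scaling, by 0.36 to 1.12 for Ctsl and 0.43 to 1.15 for Ctsb.

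Of 8 tested regulators of class II transcription 1 rose in A/J, 1 in C3H/HeJ and 2 in WSB/EiJ, where 3 fell. With quantile normalization, with or without normexp, 1 fell in WSB/EiJ. Of all probes 7.31% were called in either direction in A/J, 39.7% in C3H/HeJ and 69.3% in WSB/EiJ. Irf8, a factor of dendritic cells and macrophages, rose by 1.74 in C3H/HeJ, 1.91 in WSB/EiJ and 1.07 in A/J, the last lost without A/J control replicate 1 or 3 or deficient replicate 1, 2 or 3 (limma, adjusted p from 0.0504 to 0.146). Spi1, the factor PU.1, rose by at least 1.30-fold in WSB/EiJ from controls below background. The subunits of the complexes on the X and Y boxes were called higher in no strain, but with spike-in scaling 7 of the 8 regulators were called higher in WSB/EiJ. Rfxap fell by 0.69 and Nfyc by 0.50 in WSB/EiJ, a direction that spike-in scaling turned (0.28 and 0.46), and Rfxank and Nfya passed in no strain but read 0.92 and 1.03 in WSB/EiJ with that scaling (limma, adjusted p = 3.52e-05 and 0.00584). Rfx5 was above background on all 4 arrays of no group and was not tested.

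For interferon gamma, the classical inducer of Ciita, the ligand gene Ifng was likewise not tested, but its receptor genes were. Ifngr1 rose by 0.58 in A/J, 0.95 in C3H/HeJ and 1.92 in WSB/EiJ, and Ifngr2 by 0.57, 0.66 and 1.30. The A/J calls rested on single arrays: Ifngr1 was lost without control replicate 1 or 3 or deficient replicate 1 or 3 (limma, adjusted p from 0.071 to 0.126) and Ifngr2 without deficient replicate 1 or 3 (0.0659 and 0.068). Jak2 rose by 0.21 in WSB/EiJ, a call lost without control replicate 1 or 2 or deficient replicate 1, 2 or 4 (adjusted p from 0.0587 to 0.139).

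Costimulatory molecules, which antigen-presenting cells show beside class II, rose in 3 of 3 cases in C3H/HeJ and WSB/EiJ. Cd40 rose by at least 5.11-fold in C3H/HeJ and 6.61-fold in WSB/EiJ, from controls below background. On the log2 scale Cd86 rose by 1.42 and 2.47 and Cd80 by 1.01 and 1.5, the Cd80 call in C3H/HeJ being lost with only the compared groups fitted (adjusted p = 0.0648). In A/J the differences of Cd40, Cd86 and Cd80 were 1.76, 0.78 and 0.66 and 0 of 3 passed (limma, adjusted p = 0.0584, 0.0501 and 0.144; 3 at an unadjusted p under 0.05), while 3 of 3 passed with spike-in scaling and 1 of 3 with quantile normalization or median centring. Of the ubiquitin ligases that remove class II from the surface, March1 rose by 0.81 in WSB/EiJ and March8 fell by 0.53, which became 0.43 with spike-in scaling, 0.10 with quantile normalization and 0.11 with normexp. Mif, a ligand of Cd74, fell by 0.79 in WSB/EiJ, which became 0.17 with spike-in scaling. This fall was not called with quantile normalization, with or without normexp.

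Outside the members, the genes whose pattern over the 24 arrays was most like that of Cd74 were ranked by the root mean square difference of log2 levels after each probe was centred on its mean, among 16841 probes above background on at least 3 arrays of every group. The nearest 6 were Cxcl10 (0.48), Itga4 (0.49), Gbp2 (0.51), Ccl5 (0.57), Ctss (0.58) and Coro1a (0.59), in log2 units. The members H2-DMa (0.26) and H2-DMb1 (0.32) were nearer than all of these, the H2-Ab1 probes (1.04 and 0.91) had 374 and 205 genes nearer, and H2-Eb1 (2.43) stood far off. Cxcl10, a chemokine induced by interferon, rose by 1.64 in A/J, 3.33 in C3H/HeJ and 3.56 in WSB/EiJ. Gbp2, an interferon-induced GTPase, was 1.00 in A/J (limma, adjusted p = 0.21) and rose by 2.95 and 2.54 in the other strains. The distance is a description over arrays that share strain, diet and slide, and carries no test.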

How the data were processed

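Liver RNA (0.5 ug) was labelled with Cy3 and scanned on single-colour arrays, per the labels' protocols. Per the file headers and the submitters' processing notes, the authors used Agilent Feature Extraction 10.7, and each deposited spot intensity is its processed, background-subtracted signal. The flags for spots well above background and for outlier spots are the authors', per the file headers. A further table of intensities that the authors deposited held the same signals times 1 constant per array.

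Outlier spots were left out (3332), replicate spots averaged, and log2 intensities centred on each array's 75th percentile. With limma 3.58.1 (R 4.3.3), 1 mean per group was fitted to the 24 arrays together. Moderated tests were 2-sided, with Benjamini-Hochberg adjustment over all 28157 probes and a threshold of 0.05. Tested on simulated data of 28066 probes, the fit for C3H/HeJ recovered 92% of 4-fold changes, and 5.85% of its calls were false. The simulated noise was independent, with 1 spread per probe shared by all groups. The member probes differed in spread between groups, so these shares do not describe them.

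Members and lists were chosen with earlier results of these data known. A list gene was represented by its brightest tested probe, and pathway genes named with values were those called in a diet comparison with the largest changes, up to 4 per role, while Rfxank, Nfya, Nfyb, Ctsl, Ctsb, Ctsh, Sppl2a and the markers named singly were chosen after their values were seen. The 6 genes nearest Cd74 were taken by the distance given above. Replicate numbers did not pair samples: deviations of same-numbered arrays correlated between -0.316 and 0.06 over 12 pairs. Alternatives covered scaling, background correction, filters, blocks, weights, thresholds and arrays left out. Array number limits the precision. Some list genes are not reported here.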

Additional observations from a re-analysis of the deposited data

Results flagged for a closer look

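In groups of 4 arrays, 1 array lay far from the others for 6 of 66 combinations of member probe and group, and chance flags about 1 in 20 such groups. The combinations share arrays and are not independent, so these shares do not measure an excess over chance. WSB/EiJ deficient replicate 3 was the lowest of its group for Cd74 (5.09, the others at 5.64 or more), for the H2-Ab1 probes (6.16 and 5.96, the others at 6.80 or more and 6.58 or more) and for H2-DMa (0.0363, the others at 0.51 or more). C3H/HeJ control replicate 2 was lowest for H2-DMb1 (-1.35, the others at -0.48 or more). WSB/EiJ control replicate 4 was lowest for Ciita (-5.93, the others at -5.37 or more), where 0 of 4 arrays were above background. Each of these arrays was still on its own diet's side of the other diet's arrays, and the causes were not tested.

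The diet effect differed between strains by limma's test of the difference itself for 17 combinations of probe and strain pair. Against A/J the C3H/HeJ effect was larger by 3.03 for Cd74, 3.76 for H2-Aa, 3.73 and 3.63 for the H2-Ab1 probes, 2.82 for H2-DMa, 3.1 for H2-DMb1 and 3.83 for H2-Eb1. Against A/J the WSB/EiJ effect was larger by 2.71 for Cd74, 2.96 and 3.02 for the H2-Ab1 probes, 2.84 for H2-DMa, 2.70 for H2-DMb1, 3.73 for H2-Ea, 3.01 for H2-Eb1, 2.77 for H2-Oa and 3.21 for H2-Ob. The values of H2-Aa, H2-Ea, H2-Oa and H2-Ob rest on groups partly below background and are not exact sizes. The WSB/EiJ effect on H2-Aa was -5.45 relative to that in C3H/HeJ, with the WSB/EiJ arrays of both diets below background.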

How the results depend on the processing

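Counts of called member probes moved by over 1.5 times in these cases. With probes above background on all arrays, which left 5 member probes, the count was 5 in C3H/HeJ, 5 in WSB/EiJ, 5 for WSB/EiJ minus A/J, 0 for WSB/EiJ minus C3H/HeJ and 3 for WSB/EiJ against A/J on the control diet. Without both A/J arrays numbered 4 it was 1 in A/J (H2-DMb1, 1.69), 0 for C3H/HeJ minus A/J and 2 for WSB/EiJ minus C3H/HeJ. C3H/HeJ minus A/J also gave 4 with spike-in scaling, 0 with only the compared groups fitted and 0 at an adjusted p of 0.01. WSB/EiJ minus C3H/HeJ gave 2 with normexp correction and quantile normalization, 2 with only the compared groups and 2 with array weights. With single arrays left out the diet counts lay between 0 and 0 in A/J, 10 and 11 in C3H/HeJ and 10 and 10 in WSB/EiJ. They lay between 5 and 7 for C3H/HeJ minus A/J, 9 and 10 for WSB/EiJ minus A/J, and 1 and 2 for WSB/EiJ minus C3H/HeJ. The 2 came without A/J deficient replicate 4, C3H/HeJ deficient replicate 1 or C3H/HeJ deficient replicate 2.

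Directions turned for H2-Aa in WSB/EiJ, which is below background (0.0099 with quantile normalization, 0.18 with spike-in scaling, 0.0384 with normexp and quantile normalization), and for H2-Ab1 between WSB/EiJ and A/J controls (-0.608 to 0.0837 with single arrays left out, above 0 without A/J control replicate 2 or 4, and 0.0837 without both A/J arrays numbered 4). In WSB/EiJ they turned with spike-in scaling for Rfxap (0.28), Nfyc (0.46), Mif (0.17) and March8 (0.43), and for March8 also with quantile normalization (0.10) and normexp (0.11). The causes were not tested. The replicate block, whose numbers do not pair the arrays, ended the C3H/HeJ minus A/J calls of H2-DMa (2.82, adjusted p = 0.0504) and H2-DMb1 (3.1, adjusted p = 0.0532) and the calls of Irf8 in A/J and Jak2 in WSB/EiJ, and no other call of the genes named with values.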
